A study of Homo sapiens with 12 samples.

Results

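The 42 genes described here are known targets and partners of ATF4, the transcription factor of the integrated stress response, and were taken by symbol from a gene table of 36459 symbols, with the older names of the tRNA synthetases. All 42 were among the 14209 genes with enough counts to be tested. By role they comprise 7 transcription factors, 9 feedback and stress effectors, 11 enzymes of amino acid synthesis and one-carbon metabolism, 5 amino acid transporters and 10 genes of tRNA charging and export (9 synthetases and XPOT). HEK293, an established human embryonic kidney cell line, was sequenced for poly-A RNA in 4 groups of 3 libraries: oleic acid + FAC, FAC alone, oleic acid alone and vehicle. FAC is ferric ammonium citrate, an iron salt that the study used to induce ferroptosis, and oleic acid is a monounsaturated fatty acid. Cells given ammonium citrate alone were not among the groups, and what the iron does and what the remainder of the salt does cannot be told apart. The sources used here give neither doses nor length of treatment, nor whether the numbered replicates were separate cultures, so the p-values rest on the spread between libraries, which may be technical.

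In the integrated stress response, kinases that sense amino acid shortage, misfolded proteins in the endoplasmic reticulum, heme deficiency or viral RNA phosphorylate the translation initiation factor eIF2. Bulk protein synthesis then slows while ATF4 is translated more, and ATF4 binds DNA with C/EBP partners to raise transcription of genes for amino acid uptake, amino acid synthesis and tRNA charging. Because ATF4 is controlled largely at translation, its mRNA level does not read its protein level. CHAC1, one of its targets, degrades glutathione and is widely used as a marker in ferroptosis studies.

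Library totals ran from 14098216 to 18717397 counts, and 3 counts, the limit that a count of 0 allows, correspond to 0.158 to 0.224 CPM. CPM is the count scaled to library size, with factors between libraries from the trimmed mean of M values (TMM), and such limits cover counting error only. Of the 12 libraries, replicate 3 stood apart in both groups with oleic acid. In these the deviation of the 42 genes from the mean of the library's own group correlated with log2 transcript length. The correlation was -0.55 in oleic acid + FAC and -0.69 in oleic acid, against -0.31 to 0.56 in the other 10 libraries (over genes, not over replicates). Deviations within a group of 3 sum to 0, so a negative correlation in 1 library goes with positive ones in its group. The contrast is therefore partly built in. Mitochondrially encoded mRNAs took 12.1% of the counts in replicate 3 of oleic acid + FAC, against 3.33% to 7.50% elsewhere. The third oleic acid library was the highest of its group for 22 of the 42 genes and the lowest for 9, and the third oleic acid + FAC library was the highest for 14 and the lowest for 13. Summed HEK293 markers (7 of 7 detected, VIM the highest) ran from 1327 to 1956 CPM in oleic acid + FAC, 1008 to 1442 in FAC, 983 to 1424 in oleic acid and 930 to 1271 in vehicle libraries. Over all 12 libraries, fibroblast markers (4 of 4 detected) summed to 9.71 to 18.3 CPM, mostly from COL1A1 (9.41 to 17.9 CPM). COL1A2, DCN and LUM reached at most 0.185, 0.175 and 0.926 CPM in any library. Endothelial markers (4 of 4) summed to 0.994 to 2.05 CPM. Blood markers (3 of 4, CD68 the highest, HBB at 0) summed to 2.78 to 5.46 and hepatocyte markers (3 of 4, SERPINA1 at 0) to 0 to 0.454. The part of these differences in the results was not tested.

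Per kilobase of transcript, the levels of the 42 genes in vehicle cells spanned 0.222 to 280 CPM per kb. ATF4 itself was the most abundant at 280 CPM per kb. The glutamine transporter SLC1A5 followed at 202, then PHGDH, the first enzyme of serine synthesis, at 178, and SHMT2, which passes one-carbon units from serine to folate in mitochondria, at 110. NUPR1, a small stress-induced nuclear protein, and GDF15, a secreted cytokine, were the lowest at 0.222 and 0.311 CPM per kb, with 7 to 23 and 2 to 12 counts per library. The tRNA charging and export genes occupied a narrow and high range, from 18.0 to 100.4 CPM per kb with a median of 66.0, while the transcription factors, with a median of 4.31, covered the whole span of the 42. Spread between replicates followed the same division: the coefficient of variation within groups had a median of 9.17% for the tRNA genes, 15.8% for the enzymes, 19.3% for the effectors and 26.8% for the transcription factors.

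**Figure D1:**
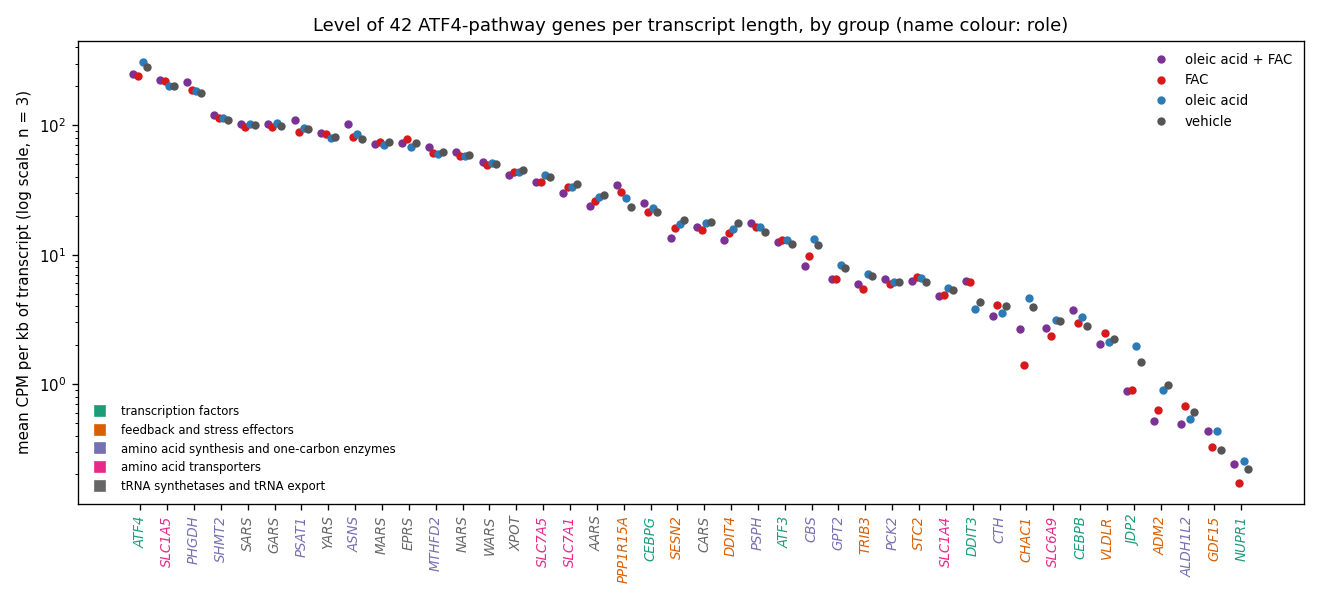
Mean level of each of the 42 genes in CPM per kb of transcript (log axis, 3 libraries per group), ordered by the level in vehicle libraries, with gene names coloured by role. The 4 groups nearly coincide for the abundant genes on the left, from ATF4 at 280 CPM per kb in vehicle cells, and differ most for low genes such as CHAC1 and JDP2.

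FAC was tested in cells without oleic acid, in cells with it, and as the average of both, which sets the 6 libraries with FAC against the 6 without. In the averaged comparison 3 of the 42 genes fell and none rose at an adjusted p under 0.05 in edgeR's quasi-likelihood test. They were CHAC1, the transcription factor JDP2 and CBS, an enzyme of cysteine synthesis. With the replicate number as a block the same test called 9 of the 42, with DDIT3 and PPP1R15A higher and JDP2, CHAC1, TRIB3, SESN2, DDIT4, CBS and GPT2 lower, beside 2211 of all genes in place of 1244. Deviations from the group means correlated between same-numbered libraries of oleic acid + FAC and oleic acid in every replicate. Between FAC and vehicle they correlated in replicates 1 and 2 (0.314 and 0.399) and not in replicate 3 (0.0247). Among all genes 8.76% were called, 3.27% higher and 5.48% lower, so a share of 3 in 42 lay near the background. The median log2 fold change was 0.0034 over the 42 genes and 0.0045 over all genes tested, and 21 of the 42 were above 0, against 50.7% of all genes. At an unadjusted p under 0.05 there were 11 of the 42, against 23.5% of all genes. DESeq2 called 7 of the 42 and limma-voom 4. Their shares of all genes in this comparison are not given here, so these 2 counts cannot be set against a background. The 95% interval of the fold change lay within 1.5-fold either way for 29 of the 42, including all 10 tRNA genes and all 5 transporters, and for 64.9% of all genes. In bulk RNA, fewer cells making a transcript and less of it per cell cannot be told apart.

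In FAC against vehicle, edgeR called 0 of the 42 genes, against 1.19% of all genes. At an unadjusted p under 0.05 there were 4 (CHAC1, PPP1R15A, SLC6A9 and DDIT4), against 12.1% of all genes, DESeq2 called 1 (CHAC1) and limma-voom 0. In oleic acid + FAC against oleic acid it called 0 of the 42, against 2.21% of all genes, with 7 at an unadjusted p under 0.05, against 16.1% of all genes, 2 in DESeq2 (JDP2 and CBS) and 0 in limma-voom. Libraries of these 2 groups with the same replicate number deviated together, and with the replicate number as a block edgeR called JDP2 (log2 fold change -1.19, SE 0.25, adjusted p = 0.0219) and CBS (-0.70, SE 0.18, 0.0458) as lower, and 740 genes in all in place of 314. The median log2 fold changes were -0.04 for the 42 and 0.0025 for all genes with oleic acid, and -0.03 for the 42 and 0.0058 for all genes without it. Leaving out the third oleic acid or the third oleic acid + FAC library brought CHAC1 past the threshold in FAC against vehicle, and leaving out the second vehicle library brought CBS past it in oleic acid + FAC against oleic acid, so that each of these counts became 1. In the averaged comparison the count of 3 became 1 without the first and 6 without the third oleic acid library.

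**Figure D2:**
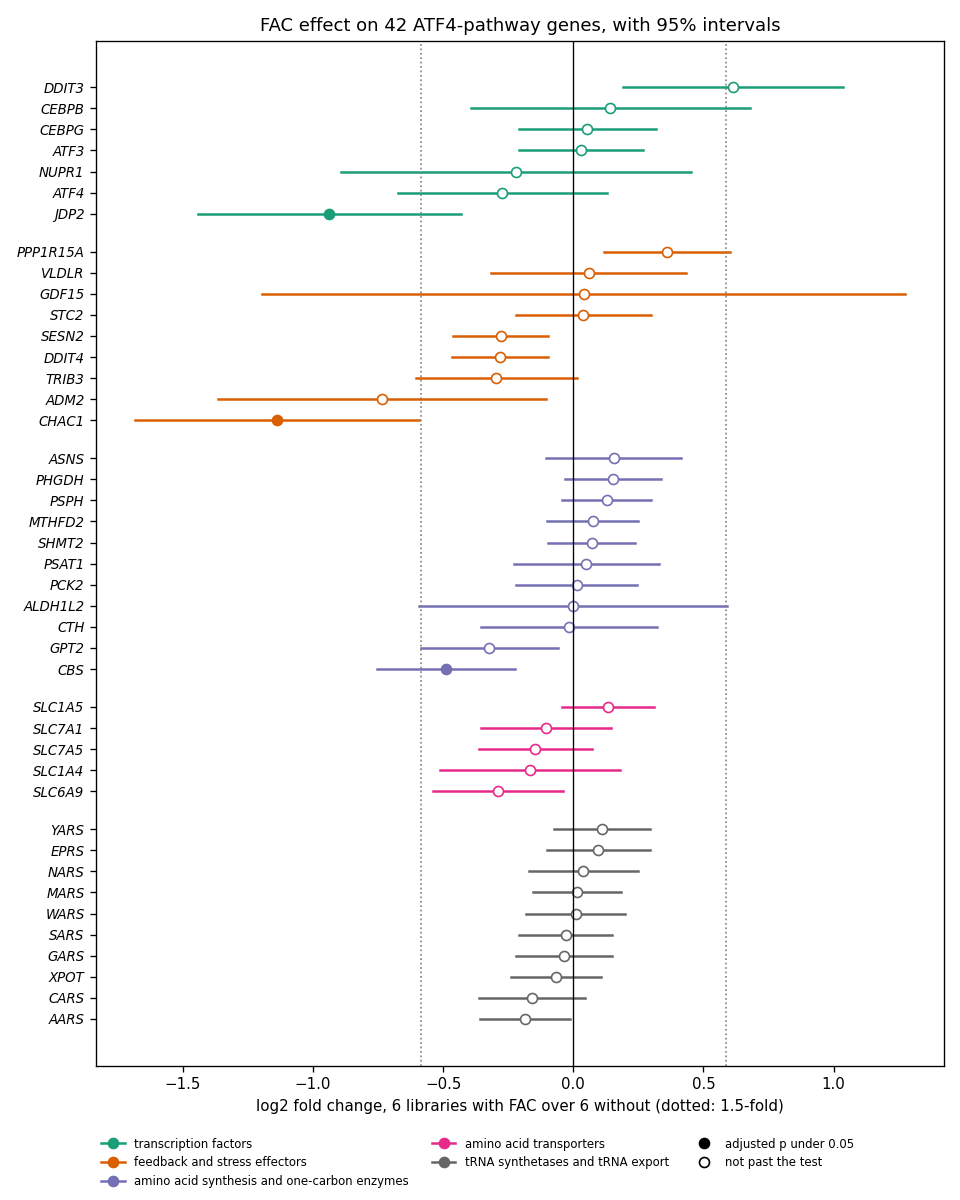
Log2 fold change of each gene, 6 libraries with FAC over 6 without (point) and its 95% interval (bar), grouped and coloured by role, with filled points for an adjusted p under 0.05. CHAC1, JDP2 and CBS are filled, and the intervals of all tRNA genes lie inside the dotted lines that mark 1.5-fold.

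CHAC1 had the largest averaged difference of the 42. It had 2.62, 2.84 and 6.18 CPM in oleic acid + FAC and 1.30, 1.95 and 2.86 CPM in FAC libraries, against 5.61, 5.42 and 9.12 CPM in oleic acid and 5.50, 5.50 and 6.17 CPM in vehicle libraries. All FAC libraries lay below all vehicle libraries, whereas the third oleic acid + FAC library, at 6.18 CPM, reached the range of the libraries without FAC, and the third library was the highest of its group in all 4 groups. Averaged, CHAC1 fell by 1.14 on the log2 scale (SE 0.25, 95% interval -1.68 to -0.59, adjusted p = 0.0146), to 2.96 ± 1.69 CPM with FAC, against 6.22 ± 1.45 CPM without (SD, n = 6 each), and it passed in all 20 alternatives run. Its log2 fold change was -0.80 (SE 0.35, adjusted p = 0.289) in oleic acid + FAC against oleic acid and -1.48 (SE 0.36, adjusted p = 0.0760) in FAC against vehicle. With the replicate block edgeR gave -0.84 (SE 0.22, adjusted p = 0.0535) in oleic acid + FAC against oleic acid. The gene lies on chromosome 15 at 40952962 to 40956519 (GRCh38, plus strand, protein-coding) and had 20 to 122 counts per library.

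JDP2 is a leucine zipper factor that represses AP-1 targets. It had 2.15, 1.08 and 1.35 CPM in oleic acid + FAC and 1.63, 1.26 and 1.79 CPM in FAC libraries, against 3.91, 2.79 and 3.59 CPM in oleic acid and 3.52, 1.97 and 2.20 CPM in vehicle libraries. The groups did not overlap in either comparison of FAC, although the highest library with FAC (2.15 CPM) exceeded the lowest without (1.97 CPM). Averaged, it fell by 0.94 on the log2 scale (SE 0.23, adjusted p = 0.0255), to 1.54 ± 0.39 CPM with FAC, against 3.00 ± 0.80 CPM without (SD, n = 6 each). JDP2 had 19 to 67 counts per library, and its call depended on single libraries. It missed the threshold without the second or the third oleic acid + FAC library (adjusted p = 0.0675 and 0.0504), the first or second FAC library (0.0553 and 0.0615), the first oleic acid library (0.0670) or the first vehicle library (0.0631). JDP2 lies on chromosome 14 at 75427716 to 75474111 (plus strand, protein-coding).

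CBS joins homocysteine and serine in the first step of the route to cysteine, a precursor of glutathione. It had 21.0, 17.4 and 18.6 CPM in oleic acid + FAC and 21.1, 25.0 and 22.4 CPM in FAC libraries, against 33.5, 24.4 and 34.5 CPM in oleic acid and 24.4, 34.8 and 24.0 CPM in vehicle libraries. The oleic acid + FAC and oleic acid libraries did not overlap, while the FAC and vehicle libraries did. Averaged, it fell by 0.49 on the log2 scale (SE 0.12, adjusted p = 0.0265), to 20.9 ± 2.72 CPM with FAC, against 29.3 ± 5.52 CPM without (SD, n = 6 each). It missed the threshold without the second oleic acid + FAC library (adjusted p = 0.0717), the first or the third FAC library (0.0683 and 0.0679), the first oleic acid library (0.0686) or the second vehicle library (0.0704). CBS (chromosome 21, 43053191 to 43076943, minus strand, protein-coding) has a near-identical copy in the table, CBSL, with 386 to 801 counts against 262 to 602 for CBS, so the division of reads between them is uncertain. For CBSL alone the averaged log2 fold change was -0.26 with an adjusted p of 0.245. With the counts of both summed, a setting chosen after seeing the data, the level was 53.4 ± 4.93 CPM with FAC, against 68.1 ± 2.21 CPM without (SD, n = 6 each), and the log2 fold change was -0.35 (SE 0.08, adjusted p = 0.0151). The 6 sums with FAC (45.4 to 58.3 CPM) lay below the 6 without (65.2 to 70.4 CPM).

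The promoters of several of the genes hold the composite site that ATF4 and its C/EBP partners bind, whose core was searched as TGATGNAA on both strands from 250 bases before to 50 bases after each RefSeq transcription start (GRCh38.p14). Windows were found for 36 of the 42 genes, and 13 of these (36.1%) held a match in at least 1 window, against 4.46% of 27305 genes. Per window the shares were 23.6% of 55 and 3.62% of 35116. The 42 genes were chosen as known targets and partners of ATF4, so the higher share is no finding about these libraries. The genes with a match were ATF3, CEBPG, JDP2, CHAC1, ASNS, SLC7A1, SLC1A5, SLC1A4, AARS, GARS, MARS, NARS and CARS. The CBS windows held none, and NUPR1, PSPH, SHMT2, ALDH1L2, GPT2 and YARS had no window. The 6 sites printed here are those of CHAC1 and JDP2, which fell with FAC, and 1 from each of 4 genes of different roles that did not pass the test. Each reads 5′ to 3′ on the strand of its gene, with the match in capitals (in the CHAC1 and AARS sites as its reverse complement). The sites lie at chr15:40953251-40953280 (plus strand, match at -209 from the start) for CHAC1, chr14:75427995-75428021 (plus, -16) for JDP2 and chr1:212565205-212565234 (plus, -191) for ATF3. Those of ASNS, SLC1A5 and AARS lie at chr7:97872458-97872487 (minus, -68), chr19:46784893-46784922 (minus, -97) and chr16:70289675-70289704 (minus, -187). JDP2 and SLC1A5 had 3 windows each, and ATF3 and ASNS 2 each. In these 4 genes only 1 window held the site, and the distance is to the start of that window. The CHAC1, JDP2, ASNS and SLC1A5 sites lie inside the GENCODE loci of their genes. These loci begin further upstream than the RefSeq start used.
CHAC1: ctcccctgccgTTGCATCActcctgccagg
JDP2: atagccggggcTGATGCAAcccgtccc
ATF3: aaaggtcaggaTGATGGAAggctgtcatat
ASNS: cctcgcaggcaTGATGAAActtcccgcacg
SLC1A5: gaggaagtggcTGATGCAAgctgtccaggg
AARS: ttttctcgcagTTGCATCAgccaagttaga
A match is a description of these letters, and binding was not measured.

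Among the 7 transcription factors, 1 fell (JDP2), and the median log2 fold change was 0.03 in the averaged comparison. ATF4 had 252, 326 and 485 CPM in oleic acid + FAC and 262, 380 and 387 CPM in FAC libraries, against 336, 386 and 608 CPM in oleic acid and 334, 403 and 464 CPM in vehicle libraries. The ranges overlapped in both comparisons, and the averaged log2 fold change was -0.27 (SE 0.19, 95% interval -0.67 to 0.13, adjusted p = 0.403, and 0.0548 with the replicate block). ATF4 was lower with FAC in 6 of 6 comparisons of same-numbered libraries, as were JDP2, CHAC1, TRIB3, SESN2, DDIT4, ADM2, CBS, SLC6A9 and SLC1A4. DDIT3, PPP1R15A and PSPH were lower in 0 of 6. The share of all genes was not counted, and the 6 include FAC and vehicle libraries, which the numbers did not pair. ATF4 lies on chromosome 22 at 39519695 to 39522685 (plus strand, protein-coding). DDIT3 encodes CHOP, a factor that promotes cell death under prolonged stress. It had 5.12, 5.68 and 6.32 CPM in oleic acid + FAC and 5.72, 6.05 and 5.19 CPM in FAC libraries, against 3.21, 2.42 and 4.86 CPM in oleic acid and 3.09, 5.50 and 3.30 CPM in vehicle libraries. The oleic acid + FAC libraries lay above the oleic acid libraries, and the second vehicle library alone reached into the FAC range. The averaged log2 fold change was 0.62 (SE 0.20, 95% interval 0.19 to 1.04), with an adjusted p of 0.0705 that missed the threshold, and 7 of 20 alternatives passed it, among them DESeq2 (0.0260) and the replicate block (0.0484). DDIT3 (chromosome 12, 57516588 to 57521737, minus strand, protein-coding) shares 355 exon bases with MARS on the opposite strand, which had 2565 to 4030 counts against 45 to 115 for DDIT3, and the sources used here do not say whether counting used strand. The bZIP factor ATF3 stood at 24.8 ± 2.58 CPM with FAC, against 24.4 ± 3.51 CPM without (SD, n = 6 each). CEBPG and CEBPB, binding partners of ATF4, had averaged log2 fold changes of 0.05 and 0.14, and NUPR1 -0.22, with adjusted p-values of 0.832, 0.783 and 0.723.

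**Figure D3:**
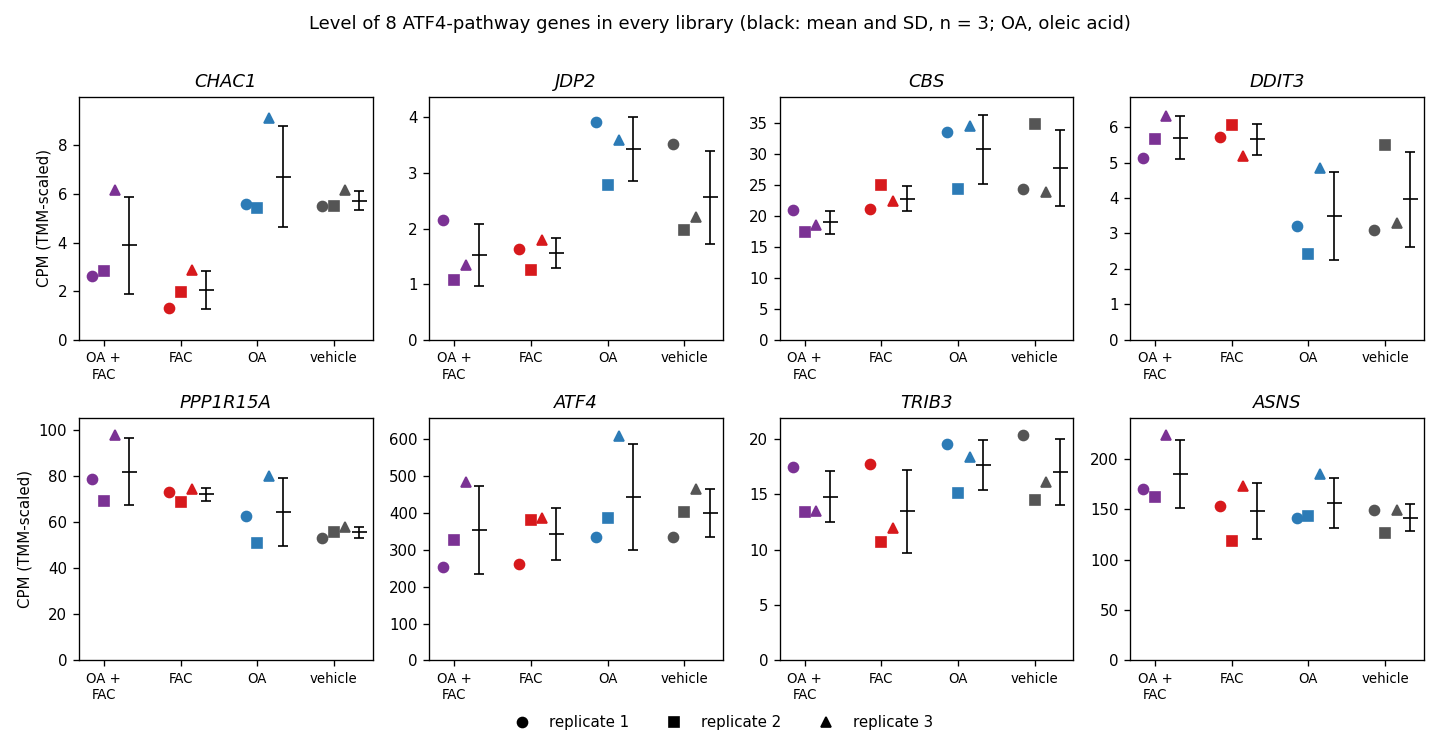
Level of 8 of the genes in CPM in each library (points, shaped by replicate number), with mean and SD (bars, n = 3), for oleic acid + FAC, FAC, oleic acid (OA) and vehicle. The FAC libraries of CHAC1 lie at 1.30 to 2.86 CPM, below the vehicle libraries at 5.50 to 6.17 CPM. For ATF4, TRIB3 and ASNS the libraries with and without FAC overlap, both with oleic acid and without it.

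The 9 feedback and stress effectors had the lowest median of the roles, a log2 fold change of -0.28 in the averaged comparison, and 1 fell (CHAC1). Of the 9, 5 had an unadjusted p under 0.05 in edgeR, against 23.5% of all genes. The counts were 2 of 7 transcription factors, 2 of 11 enzymes, 1 of 5 transporters and 1 of 10 tRNA genes. TRIB3, a pseudokinase that dampens ATF4 and CHOP, had 17.5, 13.4 and 13.5 CPM in oleic acid + FAC and 17.8, 10.7 and 12 CPM in FAC libraries, against 19.5, 15.1 and 18.4 CPM in oleic acid and 20.3, 14.5 and 16.1 CPM in vehicle libraries. Its groups overlapped, and the averaged log2 fold change was -0.30 (SE 0.14, adjusted p = 0.232; chromosome 20, 362835 to 397559, plus strand, protein-coding). Like ATF4 and others of the 42, TRIB3 was lower with FAC in 6 of 6 comparisons of same-numbered libraries, a count with no share of all genes beside it. It passed in 2 of 20 alternatives, both with the replicate block (adjusted p = 0.0283 with the block alone). The 2 restrainers of mTORC1 signalling, SESN2 and DDIT4, had averaged log2 fold changes of -0.28 each, with adjusted p-values of 0.0571 and 0.0581. SESN2 and DDIT4 each passed in 5 of 20 alternatives, among them DESeq2 (0.0238 and 0.0322) and the replicate block (0.0342 and 0.0227). SESN2 stood at 51.2 ± 7.08 CPM with FAC, against 62.0 ± 4.76 CPM without, and DDIT4 at 24.1 ± 2.77 CPM with FAC, against 29.3 ± 2.15 CPM without (SD, n = 6 each). PPP1R15A (GADD34), the phosphatase subunit that removes phosphate from eIF2 and so ends the response, had a positive log2 fold change. Its values in every library, chosen for display after they were seen, were 78.8, 69.4 and 98.0 CPM in oleic acid + FAC and 73.3, 69.0 and 74.5 CPM in FAC libraries, against 62.6, 51.1 and 80.2 CPM in oleic acid and 53.4, 55.9 and 57.9 CPM in vehicle libraries. All 3 FAC libraries exceeded all 3 vehicle libraries, and the averaged log2 fold change was 0.36 (SE 0.11, 95% interval 0.12 to 0.60, adjusted p = 0.0663). PPP1R15A passed in 6 of 20 alternatives, among them DESeq2 (0.0247) and the replicate block (0.0139). The peptide hormone ADM2, at 10 to 44 counts per library, had an averaged log2 fold change of -0.73 (SE 0.29, adjusted p = 0.143). VLDLR, a lipoprotein receptor, STC2, a secreted glycoprotein, and GDF15 were at 0.06, 0.04 and 0.04, and the 95% interval of GDF15, -1.19 to 1.28, was the widest of the 42.

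Of the 11 enzymes, 1 fell (CBS), the averaged log2 fold change had a median of 0.05 and 7 were above 0. ASNS, which makes asparagine and is a classic ATF4 target, had 170, 162 and 224 CPM in oleic acid + FAC and 153, 118 and 173 CPM in FAC libraries, against 141, 143 and 185 CPM in oleic acid and 149, 126 and 149 CPM in vehicle libraries. Its libraries with and without FAC overlapped, both with oleic acid and without it. All 3 oleic acid + FAC libraries (162 to 224 CPM) exceeded all 3 vehicle libraries (126 to 149 CPM). The averaged log2 fold change of ASNS was 0.15 (SE 0.12, 95% interval -0.10 to 0.41, adjusted p = 0.471; chromosome 7, 97852118 to 97872542, minus strand, protein-coding). The serine synthesis enzymes PHGDH, PSAT1 and PSPH had averaged log2 fold changes of 0.15, 0.05 and 0.13, with adjusted p-values of 0.304, 0.858 and 0.355. The mitochondrial folate enzymes SHMT2, MTHFD2 and ALDH1L2 had 0.07, 0.08 and -0.0020, and ALDH1L2 was low in both libraries that stood apart, at 1.56 CPM in the third oleic acid + FAC and 1.94 CPM in the third oleic acid library, against 4.14 to 5.53 CPM in the other 10. CTH, which completes the route to cysteine that CBS begins, stood at 6.27 ± 0.88 CPM with FAC, against 6.33 ± 1.41 CPM without (SD, n = 6 each), a log2 fold change of -0.02. PCK2, the mitochondrial enzyme that makes phosphoenolpyruvate, had 0.01, and GPT2, the mitochondrial alanine aminotransferase, -0.32 (SE 0.12, adjusted p = 0.128). GPT2 passed in 3 of 20 alternatives, the replicate block (0.0211) among them.

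None of the 5 amino acid transporters passed the test in edgeR, DESeq2 or limma-voom, and 1 (SLC6A9) had an unadjusted p under 0.05. In the averaged comparison the median log2 fold change was -0.15. SLC6A9, a glycine transporter, had -0.29 (SE 0.12, adjusted p = 0.149), SLC1A4, a neutral amino acid carrier, -0.17, SLC7A5, the leucine carrier LAT1, -0.15 and the arginine and lysine carrier SLC7A1 -0.10. SLC1A5 alone was above 0, at 538 ± 26.3 CPM with FAC, against 491 ± 41.8 CPM without (SD, n = 6 each), a log2 fold change of 0.13 (adjusted p = 0.355). All 5 intervals together ran from 0.687-fold to 1.24-fold.

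The 10 tRNA charging and export genes were the most tightly measured. None passed the test in edgeR, DESeq2 or limma-voom, and 1 (AARS) had an unadjusted p under 0.05. Their averaged log2 fold changes had a median of -0.01, with 5 above and 5 below 0, and all 10 intervals together ran from 0.778-fold to 1.23-fold. AARS, the alanine synthetase, had the lowest value, -0.18 (SE 0.08, adjusted p = 0.182), at 86.3 ± 6.72 CPM with FAC, against 98.0 ± 7.95 CPM without (SD, n = 6 each). YARS, the tyrosine synthetase, had the highest, 0.11 (SE 0.09, adjusted p = 0.475). The cysteine synthetase CARS had -0.16, the tRNA exporter XPOT -0.07, and GARS, SARS, WARS, MARS, NARS and EPRS, which charge glycine, serine, tryptophan, methionine, asparagine and both glutamate and proline, lay from -0.04 to 0.10.

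FAC in cells with oleic acid and FAC in cells without it share no libraries. The log2 fold changes had the same sign for 30 of the 42 genes (71.4%), against 74.2% of all genes. As a description, they correlated at 0.83 across the 42, with or without CHAC1 and JDP2, and at 0.45 across all genes tested. The genes tested were not matched to the 42 in level, so these correlations cannot be set against each other. Genes with non-overlapping libraries were 5 of the 42 in FAC against vehicle (PPP1R15A higher; JDP2, CHAC1, DDIT4 and CARS lower), against 22.4% of all genes. The gene count of CARS is uncertain, since matched transcripts held 68.5% of it. In oleic acid + FAC against oleic acid they were 5 as well (DDIT3 higher; JDP2, SESN2, CBS and AARS lower), against 18.1% of all genes. JDP2 alone was in both sets. When the 6 libraries with FAC were set against the 6 without, none of the 42 separated, against 6.84% of all genes.

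**Figure D4:**
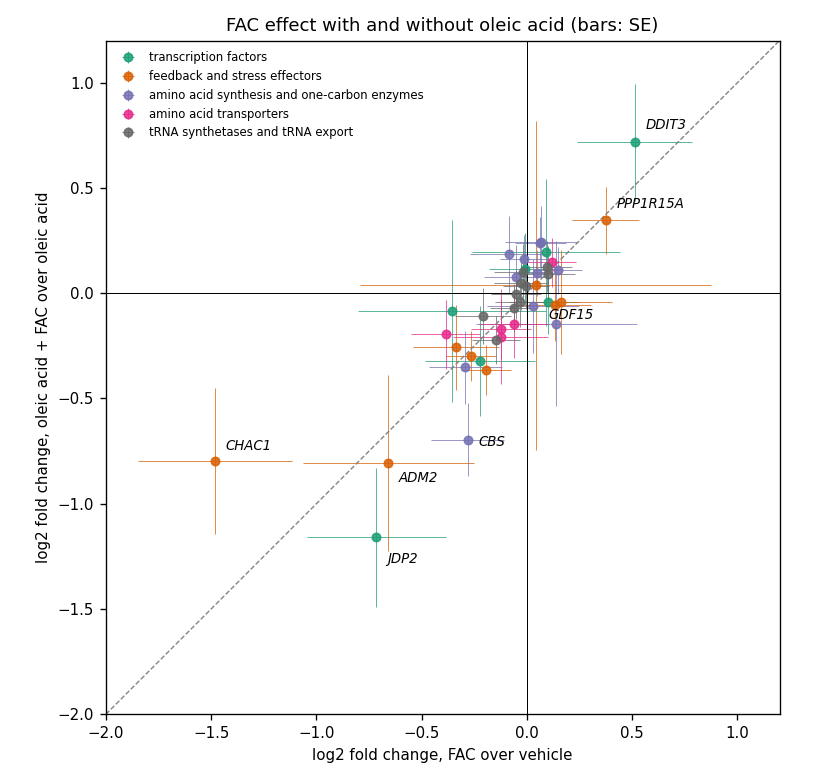
Log2 fold change of each gene for FAC over vehicle (horizontal) against oleic acid + FAC over oleic acid (vertical), with SE bars, coloured by role. The dashed line marks equal values, and CHAC1 stands apart from it, at -0.80 with oleic acid and -1.48 without it.

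The study asked how oleic acid acts on cells given FAC. In oleic acid + FAC against FAC, edgeR called 0 of the 42 genes and 0% of all genes, with 2 of the 42 (CHAC1 and SESN2) and 4.05% of all genes at an unadjusted p under 0.05 and 0 of the 42 in DESeq2 and limma-voom. The log2 fold change of CHAC1 was 0.91, with an SE of 0.37 and an adjusted p of 0.707 (0.414 with the replicate block), and did not pass. Its 95% interval was 0.11 to 1.71 and included both almost no difference and a more than 3-fold one. ASNS had 0.32 (interval -0.04 to 0.69), SESN2 -0.27 (-0.53 to -0.01), and ATF4 0.05 (-0.52 to 0.61). These intervals leave out the pairing. With the replicate block edgeR gave ASNS 0.32 (SE 0.10, adjusted p = 0.414), SESN2 -0.26 (SE 0.11, 0.414) and ATF4 0.01 (SE 0.13, 0.967). The 2 groups did not overlap for PHGDH and PSPH (higher) and CBS, AARS and XPOT (lower), against 10.5% of all genes. In oleic acid against vehicle edgeR called 0 of the 42 and 0% of all genes, with 0 of the 42 and 0.83% of all genes at an unadjusted p under 0.05 and 0 of the 42 in DESeq2 and limma-voom. CHAC1 had 0.22 (-0.52 to 0.96), and DDIT4 and MARS were lower in all 3 oleic acid libraries than in all 3 vehicle libraries, against 3.6% of all genes that did not overlap. The interaction of oleic acid and FAC, which tests whether the FAC effect differed between cells with and without oleic acid, was called for 0 of the 42 and 0% of all genes in edgeR, with 0 of the 42 and 0.816% of all genes at an unadjusted p under 0.05 and 0 of the 42 in DESeq2 and limma-voom. For CHAC1 it was 0.69 (SE 0.50, interval -0.40 to 1.78), for CBS -0.42 (-0.94 to 0.11), for DDIT3 0.21 (-0.64 to 1.05) and for ATF4 -0.10 (-0.90 to 0.70), and for the 10 tRNA genes all intervals together ran from 0.747-fold to 1.45-fold. Averaged over both FAC states, oleic acid gave 0 calls among the 42 and 0% among all genes, with CHAC1 (0.57) and SESN2 (-0.18) at an unadjusted p under 0.05, against 4.34% of all genes, and 0 of the 42 in DESeq2 and limma-voom. None of the 42 had non-overlapping libraries there, against 0.0845% of all genes.

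At the level of transcripts, 159 of the 398 annotated transcripts of the 42 genes could be tested, at least 1 for each gene, and none passed in any comparison of FAC in edgeR, against 0.00777% of all transcripts in FAC against vehicle, 0.0117% in oleic acid + FAC against oleic acid and 0.299% in the average. Unadjusted p-values under 0.05 numbered 6, 7 and 13 among the 159 in these comparisons, against 4.47%, 6.14% and 8.37% of all 51464 transcripts tested. ATF4 rested almost entirely on ATF4-202 (98.6% of its transcript counts) and TRIB3 on TRIB3-201 (99.4%). CHAC1-204 held 83.8% and had an averaged log2 fold change of -1.05 (SE 0.36, adjusted p = 0.419), and JDP2-201 held 89.1% and had -1.14 (SE 0.37, adjusted p = 0.387), close to the gene-level values. CBS was divided between CBS-203 (45.5%), CBS-204 (26.4%) and CBS-202 (16.2%). Transcripts matched to the annotation held 50% of the gene count for SESN2, 50.1% for PCK2, 68.5% for CARS, 77.3% for CEBPG, 91.8% for ALDH1L2 and 97.6% for JDP2, so the gene-level counts of these genes, and their place in the order of levels, are uncertain. For 36 of the 42 genes the sum of transcripts came within 5 counts of the gene count in every library.

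Single genes of other lists around the response passed the test in the averaged comparison. At an unadjusted p under 0.05 in edgeR there were 3 of 14 genes around eIF2, 2 of 11 further cytosolic and 8 of 17 mitochondrial tRNA synthetases. Among further ATF4 targets there were 6 of 15, against 23.5% of all genes. Of 14 genes of the eIF2 kinases, eIF2 and its exchange factor eIF2B, 1 rose and 1 fell. They were PPP1R15B, the constitutive counterpart of PPP1R15A (log2 fold change 0.30, adjusted p = 0.0462), and the eIF2B subunit EIF2B4 (-0.38, adjusted p = 0.0352), and the EIF2B1 subunit had -0.30 (adjusted p = 0.188). Of 11 further cytosolic tRNA synthetases 2 fell, RARS for arginine (-0.45, SE 0.10, adjusted p = 0.0139) and FARSA for phenylalanine (-0.34, SE 0.08, adjusted p = 0.0198). RARS stood at 102 ± 12.3 CPM with FAC, against 140 ± 14.2 CPM without (SD, n = 6 each), with no overlap, and KARS had 0.22 (adjusted p = 0.336). Of 17 mitochondrial tRNA synthetases 2 fell, HARS2 (-0.35, adjusted p = 0.0301) and MARS2 (-0.27, adjusted p = 0.0455), and AARS2 had -0.32 (adjusted p = 0.0529). DESeq2 called 6 of these 17 and limma-voom 1. Of 15 further ATF4 targets 2 rose in edgeR, and both were called in limma-voom too, while DESeq2 called 5, including SLC7A11 as lower. The share of all genes that DESeq2 called is not given here, so its counts of 6 and 5 cannot be read as an excess. BBC3, which encodes the pro-apoptotic protein PUMA and is also a p53 target, stood at 50.2 ± 3.85 CPM with FAC, against 25.9 ± 5.08 CPM without (SD, n = 6 each; log2 fold change 0.95, SE 0.12, adjusted p = 0.00048). Its 6 libraries with FAC (45.8 to 55.6 CPM) lay above the 6 without (19.5 to 34.7 CPM), and it passed in FAC against vehicle (log2 fold change 0.90, SE 0.16, adjusted p = 0.0209) and in oleic acid + FAC against oleic acid (1.01, SE 0.16, 0.0103). The small GTPase RIT1 rose by 0.32 (adjusted p = 0.0156), and SLC7A11, the cystine importer that supplies glutathione synthesis, had -0.51 (SE 0.15, adjusted p = 0.0559). SLC7A11 passed in 7 of 20 alternatives, among them DESeq2 (0.0247) and the replicate block (0.0358).

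Of 12 targets of ATF6 and XBP1, which act in the parallel branches of the unfolded protein response, 1 rose. In edgeR 3 of the 12 had an unadjusted p under 0.05. DNAJB9, a chaperone partner of the endoplasmic reticulum, stood at 19.5 ± 1.75 CPM with FAC, against 12.8 ± 1.77 CPM without (SD, n = 6 each; log2 fold change 0.61, SE 0.09, adjusted p = 0.00168), and it passed in oleic acid + FAC against oleic acid (0.80, adjusted p = 0.0106). HSP90B1 had 0.27 and XBP1 -0.21 (adjusted p = 0.170 and 0.156). Of 10 genes of the mitochondrial stress response edgeR called none, with 1 at an unadjusted p under 0.05, 1 in DESeq2 and 0 in limma-voom. CLPX, a mitochondrial protein unfoldase, had 0.26 (adjusted p = 0.0681), HSPD1 0.19 and OMA1 0.22. Beside the 8.76% of all genes called in this comparison, each of these lists is small. EIF2B4, PPP1R15B, HARS2 and MARS2 missed the threshold when single libraries were left out, in 8, 10, 8 and 11 of 12 such fits, as did FARSA without the third vehicle or the second FAC library (adjusted p = 0.0600 and 0.0502) and RIT1 without the third FAC library (0.0505). For BBC3 in FAC against vehicle the adjusted p was 0.0732 to 0.135 without any 1 of the 6 libraries compared, and in oleic acid + FAC against oleic acid it was 0.0504 without the second oleic acid + FAC library and 0.0562 without the first oleic acid library, where DNAJB9 had 0.0559.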

How the data were processed

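Poly-A RNA was sequenced from 12 HEK293 libraries, 3 in each of 4 groups assigned from the treatment labels. Total RNA with a RIN of 10 went into TruSeq libraries, per the labels' protocols. The authors deposited tables of estimated counts per gene and per transcript, in whole numbers, with no normalization. The submitters' processing notes name bcl2fastq 2.19, kallisto 0.46.1 and sleuth 0.30.0 and the build GRCh38.p12. The sources used here name neither the transcript annotation nor the use of strand in counting.

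The 42 genes, the other lists and the tests were chosen with earlier results of these data known. Genes passing filterByExpr were tested with edgeR 4.0.16 (R 4.3.3): TMM scaling, 1 quasi-likelihood fit to all 12 libraries with a mean per group, and Benjamini-Hochberg adjustment over all 14209 genes. A gene was called at an adjusted p under 0.05. SEs and 95% intervals are Wald intervals scaled by the moderated quasi-dispersion. Scripts were tested on simulated data. Alternatives were DESeq2 1.42.0, limma-voom (limma 3.58.1), other scaling, no filter, a length correction, the replicate number as a block and leaving out libraries. Loci, lengths and overlaps came from GENCODE 29, promoter windows from RefSeq (GRCh38.p14). Values in every library are given for called genes and for CHAC1, ASNS, ATF4, DDIT3 and TRIB3, and up to 3 genes with the smallest adjusted p are named from each other list.

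Replicate numbers come from the sample titles. Deviations from the group means in same-numbered libraries correlated at 0.555, 0.377 and 0.679 between oleic acid + FAC and oleic acid. They correlated at 0.259, 0.302 and 0.424 between oleic acid + FAC and FAC, so the numbers paired these groups. The 3 values were 0.314, 0.399 and 0.0247 between FAC and vehicle, so their first and second replicates deviated together and the third did not. Between oleic acid and vehicle they were -0.0882, 0.333 and -0.0586, with only the second positive. The main fit had no term for the pairing, and only the alternatives with the replicate block took account of it. Within groups, replicates differed by more than counting noise (8.37 to 125 as chi-square divided by its degrees of freedom).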

Additional observations from a re-analysis of the deposited data

How the results depend on the processing

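CHAC1 passed in the averaged comparison of FAC under all 20 alternatives (log2 fold change -1.39 to -1.0), JDP2 under 14 of 20 (-1.11 to -0.79) and CBS under 16 of 21 (-0.56 to -0.35). The count of called genes among the 42 in that comparison, 3 as reported, was 7 in DESeq2, 9 with the replicate block, 6 with a length trend removed, 11 with both, 5 without the pair of libraries that stood apart (replicate 3 of both oleic acid groups), and 1 to 6 without single replicates. In FAC against vehicle, 0 became 1 with no filter, in DESeq2, with only the compared groups, with the replicate block or with the length trend removed, 2 with length and block together, 2 without these 2 libraries, and 0 to 1 without single replicates. In oleic acid + FAC against oleic acid, 0 became 1 with no filter, 2 in DESeq2, 2 with the block, 1 with the length trend removed, 7 with both, and 0 to 1 without single replicates. Over all genes the 169 calls in FAC against vehicle became 498 in DESeq2, 351 with only the compared groups, 431 with the block, 445 with the length trend removed, 1125 with both, 672 without these 2 libraries and 27 to 299 without single replicates. The 314 in oleic acid + FAC against oleic acid became 761, 19, 740, 793 and 1979 under the first 5 of these settings in that order, and 55 to 449 without single replicates. The 1244 in the average became 2211 with the block, 2265 with the length trend removed, 3732 with both, 2143 without these 2 libraries and 738 to 1810 without single replicates. Oleic acid + FAC against FAC had 1 call in DESeq2 and 1 with length and block, and oleic acid averaged had 3 in DESeq2, 1 with the block and 2 with length and block, none among the 42. The cause of these shifts was not tested.

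Genes with averaged log2 fold changes near 0 changed sign without being called. GDF15 had -0.012 with the length trend removed and -0.015 with the block added. ALDH1L2 had 0.011 with RLE size factors, 0.011 in DESeq2, 0.025 and 0.014 under these length settings and 0.021 without these 2 libraries. CTH had 0.0059 in limma-voom and 0.028 without these 2 libraries, where SARS had 0.010. Without single replicates the values ran from -0.033 to 0.11 for ATF3, -0.029 to 0.35 for CEBPB, -0.052 to 0.14 for CEBPG, -0.066 to 0.20 for VLDLR, -0.50 to 0.35 for GDF15, -0.074 to 0.097 for STC2, -0.047 to 0.12 for PSAT1 and -0.17 to 0.17 for ALDH1L2. They ran from -0.10 to 0.089 for CTH, -0.062 to 0.062 for PCK2, -0.032 to 0.062 for WARS, -0.076 to 0.0022 for GARS, -0.071 to 0.0050 for SARS, -0.018 to 0.056 for MARS and -0.029 to 0.098 for NARS. Same-numbered libraries of FAC and vehicle correlated in replicates 1 and 2 only, and those of oleic acid and vehicle in replicate 2 only. Over all 18 same-numbered pairs 13 correlated above 0.1, and 10 of 12 libraries correlated best with their own number. Genes with few counts, such as GDF15 and NUPR1, are limited by depth.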
